A study of Mus musculus with 48 samples.

Results

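G protein-coupled receptors are membrane proteins that sense ligands outside the cell and pass the signal to G proteins inside it. Those that couple to the inhibitory G proteins lower the formation of cyclic AMP, and others act through phospholipase C. Receptors of this kind are usually transcribed at low levels, and in muscle they are known for setting growth, metabolism and the response to hormones. The genes described here are Htr1b, Gpr35, Mchr1 and Ccr10, 4 of the 47480 gene symbols measured. They were chosen as receptor genes whose mRNA changed with stretching at 3 h or 6 h in both stages of C2C12 cells, so their values at 3 h and 6 h are given as a description, without a test, and the 1 h comparisons are the ones that the choice did not use.

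C2C12 is an established mouse myoblast line that fuses into multinucleated muscle cells when serum is reduced. Undifferentiated cells (myoblasts) and cells grown in differentiation medium (differentiated cells) were plated on flexible collagen-coated membranes and stretched cyclically and equally in all directions over 3 durations, 1, 3 and 6 h. Controls for every duration stayed on identical plates without stretching. Each of the 12 groups had 4 libraries, 48 in all, and RNA was taken directly after stretching. No group carried a transgene, deletion or drug, and all libraries came from a single cell line. Per the paper, the 4 myoblast samples of a group came from 2 independent experiments, and the 4 differentiated samples from 3. The tests treated the 4 libraries of a group as independent. Their p-values therefore measure the spread between these samples, which is partly a spread within experiments and may be partly technical.

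The libraries held between 48447318 and 77080730 counts. The differentiation markers Myog, Myh3, Ckm, Acta1, Tnnt1, Mef2c and Actn2 summed to between 7.03 and 16.2 CPM (counts scaled by library size) in myoblasts and to between 9547 and 11762 CPM after differentiation, as the stage labels say. Myoblast replicates 7 and 8 carried another code in their titles than replicates 9 and 10, and the differentiated cells were divided the same way. These codes were read here as experiments. The paper describes another division of the differentiated samples over independent experiments, so the reading is uncertain for that stage. The exception to the division was the stretched differentiated group at 1 h, in which replicate 4 was the only library with its code.

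In non-stretched cells, Htr1b was by far the most abundant of the 4 genes. Its level per kilobase of exon was 9.62 ± 1.04 CPM per kb in myoblasts and 2.15 ± 0.453 CPM per kb after differentiation (SD, n = 12 libraries). Ccr10 stood at 0.240 ± 0.0643 and 0.258 ± 0.0631 CPM per kb, and Gpr35 at 0.0689 ± 0.0186 and 0.0638 ± 0.0193 CPM per kb. Mchr1 went the other way to Htr1b between the stages, with 0.136 ± 0.0324 CPM per kb in myoblasts and 0.443 ± 0.0998 CPM per kb after differentiation. The stages were deposited as separate tables and were not tested against each other. Gpr35, Mchr1 and Ccr10 had between 6 and 95 counts in a library, against 369 to 5372 for Htr1b, so their values are less precise.

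**Figure D1:**
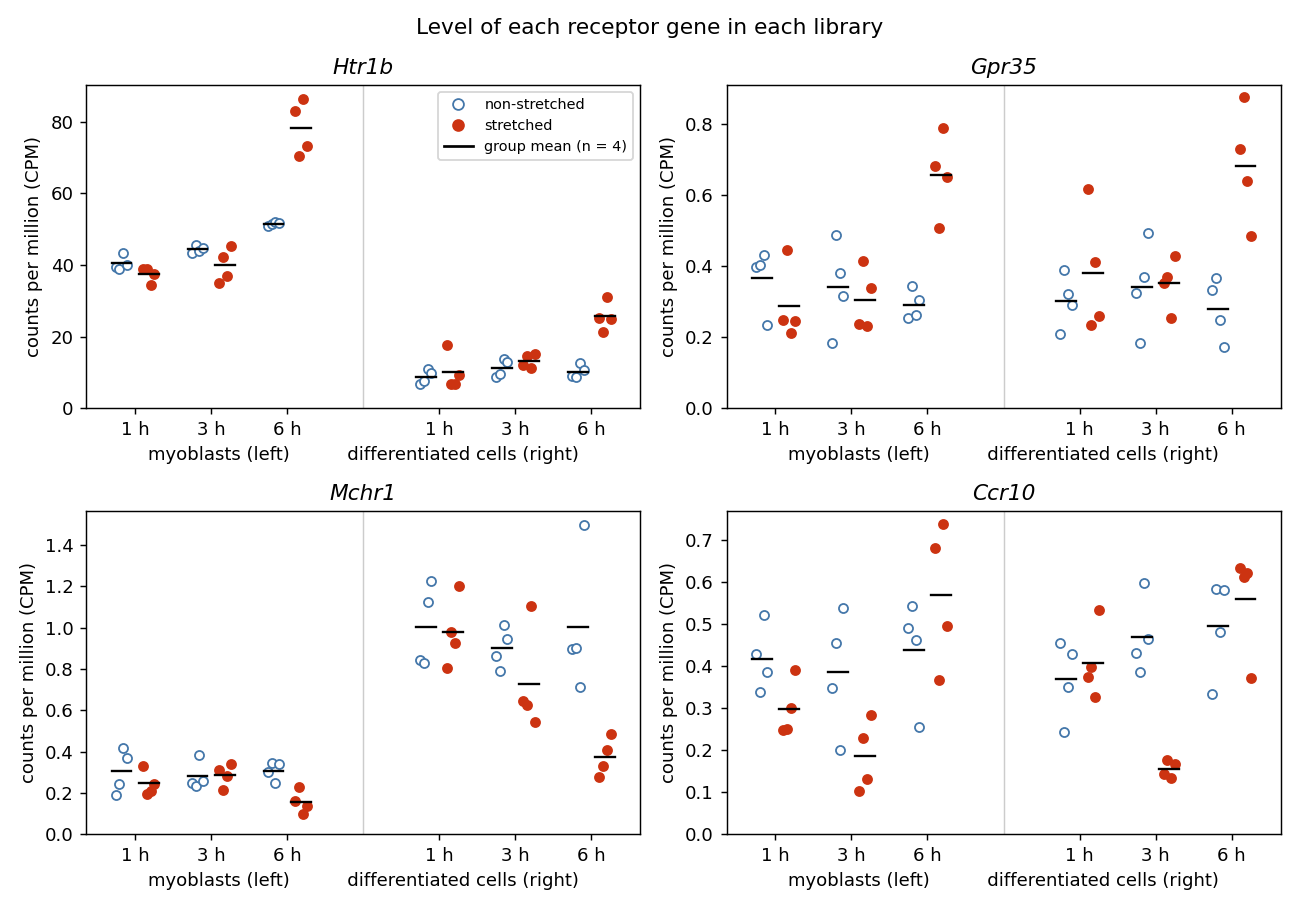
Level of each gene (CPM, linear axis from 0) in each of the 48 libraries, by hours of stretch, with myoblasts on the left and differentiated cells on the right of each panel; open points are non-stretched, filled points stretched, and bars the means of 4 libraries. The stretched points of Htr1b and Gpr35 at 6 h lie above, and those of Mchr1 at 6 h below, the non-stretched points of the same time in both stages, and Ccr10 is lowest in the stretched cells at 3 h.

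Htr1b encodes the serotonin receptor 1B, which couples to inhibitory G proteins and is best known as a receptor on nerve terminals and in vascular smooth muscle. The gene lies on chromosome 9 at 81628291 to 81633828 on the minus strand (mm10), and its coding sequence gives 386 residues. The 250 bases before its start site (chr9:81633833-81634082, minus strand, GRCm38.p6, from RefSeq) are shown because its level moved with stretching and with that of genes of sterol synthesis.
Htr1b: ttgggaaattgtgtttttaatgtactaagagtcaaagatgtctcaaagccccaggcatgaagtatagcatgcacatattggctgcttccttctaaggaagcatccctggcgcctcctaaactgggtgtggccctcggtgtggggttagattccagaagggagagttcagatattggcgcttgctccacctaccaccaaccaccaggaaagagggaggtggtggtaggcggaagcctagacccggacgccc

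In myoblasts at 6 h, the 4 stretched libraries held 83.0, 70.4, 86.3 and 73.1 CPM of Htr1b, and the 4 non-stretched libraries 50.9, 51.4, 52.0 and 51.8 CPM. All stretched libraries lay above the non-stretched ones, which 14.6% of the genes tested did in this comparison. The means were 78.2 ± 7.61 and 51.5 ± 0.466 CPM (SD, n = 4), and the log2 fold change was 0.61 ± 0.0577 (SE), or 1.52-fold. This is just inside the limit of 0.58 for a call, which required in addition a Benjamini-Hochberg adjusted p-value under 0.05. Without stretched replicate 7 or 9 the value fell just short of that limit, and its lowest value was 0.56. In cultures of this kind, more cells with the mRNA and more of it per cell cannot be told apart.

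The difference at 6 h was larger in differentiated cells, where the stretched libraries held 25.2, 21.3, 31.1 and 25.1 CPM and the non-stretched libraries 9.13, 8.71, 12.6 and 10.7 CPM. Every stretched library was above every non-stretched one, as in 14% of the genes tested. This gave a log2 fold change of 1.32 ± 0.130, or 2.49-fold. Within experiments, the difference in mean log2 CPM was 1.38 for replicates 7 and 8 and 1.27 for replicates 9 and 10, and in myoblasts 0.58 and 0.61.

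At 3 h the Htr1b levels overlapped. In myoblasts the stretched libraries ranged from 35.0 to 45.4 CPM and the non-stretched ones from 43.2 to 45.5 CPM, a log2 fold change of -0.15 ± 0.0637. In differentiated cells the log2 fold change was 0.23 ± 0.147, and it differed between experiments, with 0.54 for replicates 7 and 8 and -0.03 for replicates 9 and 10.

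The 1 h values could be tested. In myoblasts Htr1b was at 37.5 ± 2.12 CPM with stretching and 40.5 ± 2.02 CPM without (SD, n = 4). The log2 fold change of -0.11 ± 0.0480 did not pass the quasi-likelihood test (edgeR, adjusted p = 0.236). In differentiated cells the stretched libraries held 17.7, 6.69, 6.71 and 9.21 CPM, where the first is replicate 4. The non-stretched libraries held 6.89, 7.66, 10.98 and 10.03 CPM, and the log2 fold change of 0.17 ± 0.297 did not pass (edgeR, adjusted p = 0.945). Replicate 4 alone lay above the non-stretched range, and without it the log2 fold change was -0.24 (edgeR, adjusted p = 0.923).

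Ordered by group mean, Htr1b in myoblasts went from stretched 6 h to non-stretched 6 h, 3 h and 1 h, then stretched 3 h and stretched 1 h. The first 3 steps down were larger than the spread of the neighbouring groups (root mean square of their SDs), and the last 2 were not. The non-stretched mean itself was 40.5 CPM at 1 h, 44.4 CPM at 3 h and 51.5 CPM at 6 h, so the stretched cells at 6 h stood above a control that was also higher than the earlier ones. In differentiated cells only the step from stretched 6 h to the next group exceeded the spread. There the non-stretched libraries of replicates 9 and 10 held more Htr1b than those of replicates 7 and 8 at each of the 3 times.

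Htr1b shares 852 of its 4724 exonic bases (18.0%) with D430036J16Rik, an antisense transcript on the opposite strand. The library kit marked strand, but whether the counting used it is not given in the sources used here. D430036J16Rik was far less abundant, at 1.05 ± 0.103 CPM with stretching and 1.14 ± 0.0392 CPM without in myoblasts at 6 h. In differentiated cells at 6 h it was at 0.536 ± 0.116 and 0.358 ± 0.0700 CPM. Its part in the Htr1b counts was not tested.

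Gpr35 encodes a receptor that couples to inhibitory G proteins and G13 and is often listed as an orphan, with kynurenic acid among its proposed ligands. The gene lies on chromosome 1 at 92950865 to 92986391 on the plus strand, with 6 annotated transcripts, and the longest coding sequence gives 307 residues. RefSeq gave 2 start sites for it. The 250 bases before the second (chr1:92978653-92978902, plus strand, GRCm38.p6) are shown because they held the only AP-1 or TEAD letters found among the windows of these genes. Capitals mark an AP-1 match (TGANTCA, 184 bases before the start) and a TEAD match (GGAATG, 166 bases before it).
Gpr35: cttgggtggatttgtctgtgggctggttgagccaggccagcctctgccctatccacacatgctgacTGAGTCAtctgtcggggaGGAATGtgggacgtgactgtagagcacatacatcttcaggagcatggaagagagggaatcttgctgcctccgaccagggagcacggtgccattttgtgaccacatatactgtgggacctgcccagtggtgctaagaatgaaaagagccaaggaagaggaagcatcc

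On both strands, the AP-1 letters occurred in 6.75% and the TEAD letters in 12.6% of the 32851 windows of the same length. The NFAT letters GGAAA occurred at 247 and 46 bases before the start of Htr1b, as in 55.6% of all windows. Letters of the cyclic AMP response element (TGACGTCA, in 1.55% of windows), its core (TGACG, 17.8%), the CArG box (1.47%), the EGR motif (GCGNGGGCG, 4.7%), the sterol response element (TCACNCCAC, 1.05%), the TATA box (TATAAA, 12.4%) and the GC box (GGGCGG, 32.7%) were not found in the 4 windows of Htr1b, Gpr35 and Mchr1. A match is a description of letters and not a site, and no match says only that these letters are not in the window. The core is part of the full element. The counts cannot tell which start site was used.

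At 6 h the stretched myoblasts held 0.681, 0.506, 0.787 and 0.651 CPM of Gpr35, and the non-stretched ones 0.253, 0.344, 0.263 and 0.306 CPM. All stretched libraries were above all non-stretched ones, as in 14.6% of the genes tested. The log2 fold change was 1.18 ± 0.204 or 2.26-fold, from 158 counts summed over the stretched group against 70 (exact 95% Poisson intervals 134 to 185 and 54.6 to 88.4, counting error only).

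Differentiated cells gave a value of nearly the same size. Their stretched libraries held 0.730, 0.874, 0.640 and 0.485 CPM and their non-stretched libraries 0.334, 0.368, 0.248 and 0.173 CPM. Again the stretched libraries were all higher, as in 14% of the genes tested, and the log2 fold change was 1.28 ± 0.264, or 2.43-fold. Within experiments, the difference in mean log2 CPM was 0.95 and 1.29 in myoblasts and 1.15 and 1.36 in differentiated cells, in the order of the replicate numbers.

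Before 6 h, Gpr35 showed no such separation. At 3 h the log2 fold changes were -0.18 ± 0.307 in myoblasts and -0.00 ± 0.281 in differentiated cells. At 1 h they were -0.36 ± 0.291 in myoblasts (edgeR, adjusted p = 0.569) and 0.32 ± 0.329 in differentiated cells (edgeR, adjusted p = 0.901). Stretched replicate 4 was the highest of those differentiated libraries, at 0.617 CPM, and without it the log2 fold change was 0.0121. The stretched 6 h group stood above the next group by more than the spread in both stages, and none of the other neighbouring groups differed by more than it. Of Gpr35's neighbours within 20 kb, Capn10, a calpain gene upstream of it, had log2 fold changes of 0.30 ± 0.0377 and 0.23 ± 0.0611 at 6 h in myoblasts and differentiated cells. The closest neighbour, the antisense transcript 9430060I03Rik at 274 bases, had 0.20 ± 0.303 in myoblasts at 6 h (edgeR, adjusted p = 0.674). It held only 7 to 18 counts in those libraries.

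Mchr1 encodes the receptor of melanin-concentrating hormone, a neuropeptide known for its role in feeding, and couples to inhibitory G proteins and to Gq. The gene lies on chromosome 15 at 81235499 to 81238964 on the plus strand and encodes 353 residues. The 250 bases before its start (chr15:81235249-81235498, plus strand, GRCm38.p6, RefSeq) are shown for comparison with the genes that were higher at 6 h.
Mchr1: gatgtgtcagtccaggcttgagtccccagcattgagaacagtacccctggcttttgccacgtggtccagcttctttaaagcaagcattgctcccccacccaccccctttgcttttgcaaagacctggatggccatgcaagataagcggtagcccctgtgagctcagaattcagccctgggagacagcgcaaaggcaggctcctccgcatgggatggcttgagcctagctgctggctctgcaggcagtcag

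Mchr1 was lower in stretched cells at 6 h. In differentiated cells the stretched libraries held 0.276, 0.332, 0.409 and 0.485 CPM and the non-stretched libraries 0.896, 0.903, 0.714 and 1.495 CPM. The stretched libraries were all below the non-stretched ones, as in 12.4% of the genes tested, although the latter ranged widely. On the log2 scale the change was -1.41 ± 0.269, or 2.66-fold lower, with 89 counts in the stretched group against 246 (Poisson intervals 71.5 to 110 and 216 to 279).

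In myoblasts the stretched libraries held 0.162, 0.227, 0.0964 and 0.137 CPM, all below the non-stretched libraries with 0.301, 0.344, 0.247 and 0.340 CPM. The highest stretched and the lowest non-stretched library lay close together, and 14.7% of the genes tested lay below in this way. The log2 fold change was -0.98 ± 0.285 or 1.97-fold lower, from 37 counts against 74 (Poisson intervals 26.1 to 51.0 and 58.1 to 92.9). Both limits of the call were met in 3 of 8 fits that each left out 1 library. Leaving out replicate 7, 8 or 10 of the non-stretched cells, or replicate 9 or 10 of the stretched cells, ended the call, with log2 fold changes between -0.98 and -0.80.

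At 3 h the Mchr1 log2 fold changes were 0.04 ± 0.259 in myoblasts and -0.29 ± 0.220 in differentiated cells, with overlapping libraries. At 1 h they were -0.32 ± 0.302 (edgeR, adjusted p = 0.637) and -0.04 ± 0.184 (edgeR, adjusted p = 0.977). In each stage the stretched 6 h group was the lowest of the 6, below the next by more than the spread, and no other neighbouring groups differed by more than it.

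Ccr10 encodes the receptor of the chemokines CCL27 and CCL28, known from skin-homing T cells and plasma cells. It lies on chromosome 11 at 101172997 to 101175443 on the minus strand and encodes 362 residues. Among the 4 genes it alone was chosen on the 3 h comparison.

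In differentiated cells at 3 h, the stretched libraries held 0.145, 0.177, 0.133 and 0.168 CPM of Ccr10 and the non-stretched libraries 0.431, 0.386, 0.599 and 0.466 CPM. The stretched libraries lay close together and below all non-stretched ones, as in 13.4% of the genes tested. The log2 fold change of -1.60 ± 0.231, or 3.03-fold lower, was the largest in size among the 24 values of the 4 genes. It rests on 39 counts against 119 (Poisson intervals 27.7 to 53.3 and 98.6 to 142).

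In myoblasts at 3 h the groups overlapped. The stretched libraries held 0.103, 0.230, 0.132 and 0.283 CPM and the non-stretched libraries 0.349, 0.454, 0.201 and 0.538 CPM. One non-stretched library, replicate 9, lay within the stretched range. Their log2 fold change was -1.07 ± 0.361, or 2.10-fold lower, and both limits of the call were met in 3 of 8 fits that each left out 1 library. Leaving out replicate 7, 8 or 10 of the non-stretched cells, or replicate 7 or 9 of the stretched cells, ended it, with log2 fold changes between -1.11 and -0.86.

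The difference in Ccr10 was not seen at 6 h. The log2 fold changes at 6 h were 0.39 ± 0.275 in myoblasts and 0.17 ± 0.236 in differentiated cells, and the libraries overlapped. At 1 h they were -0.48 ± 0.231 in myoblasts (edgeR, adjusted p = 0.295) and 0.14 ± 0.247 in differentiated cells (edgeR, adjusted p = 0.944). The stretched 3 h group was the lowest of the 6 in both stages, below the next by more than the spread.

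Ccr10 lies wholly within the span of Cntnap1, a gene on the opposite strand that encodes a protein of the axon-glia junction, with 0 exonic bases in common. Cntnap1 at 3 h had log2 fold changes of -0.53 ± 0.115 in myoblasts and -0.48 ± 0.120 in differentiated cells (edgeR, adjusted p = 0.00349 and 0.0165), short of the fold-change limit. Ezh1, a histone methyltransferase gene in the same neighbourhood, had -0.45 ± 0.0352 and -0.43 ± 0.0317 at 3 h (edgeR, adjusted p = 3.11e-06 and 4.8e-05). The same-strand neighbour Plekhh3 had -0.03 ± 0.0510 and -0.07 ± 0.0678. At 6 h in myoblasts, Cntnap1 was at 3.89 ± 1.06 CPM with stretching and 2.73 ± 0.207 CPM without. Whether intronic reads of Cntnap1 add to Ccr10 was not tested.

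**Figure D2:**
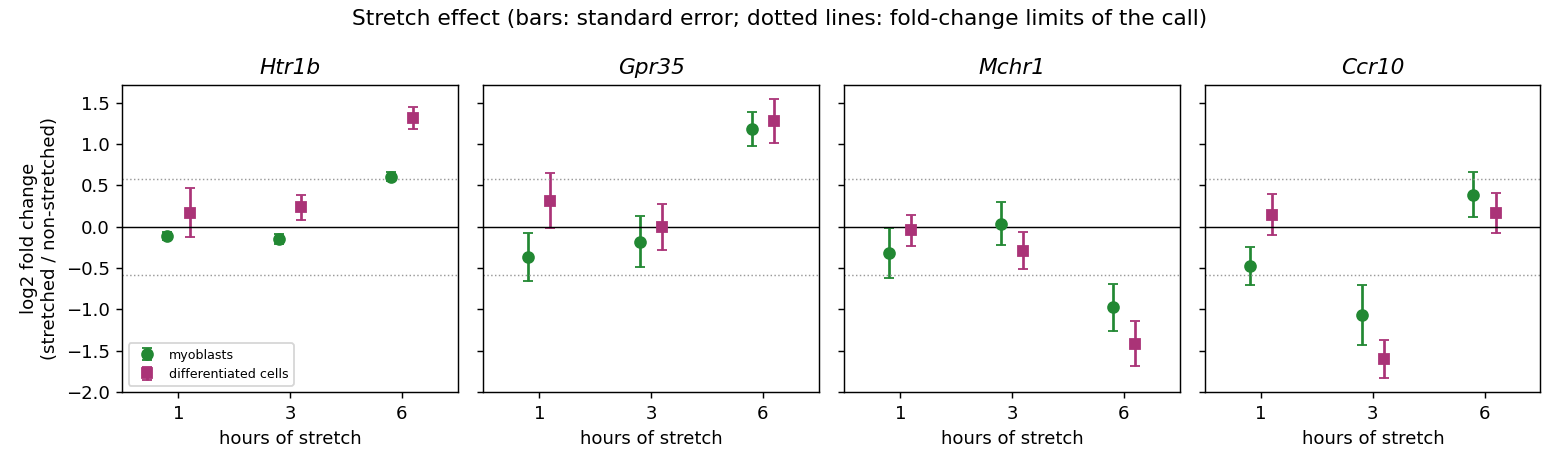
Log2 fold change of stretched over non-stretched cells for each gene at 1, 3 and 6 h, as points with standard errors, in myoblasts (circles) and differentiated cells (squares); dotted lines mark the fold-change limits of a call. Htr1b and Gpr35 are above 0 and Mchr1 below 0 at 6 h in both stages, while Ccr10 is lowest at 3 h (-1.07 and -1.60).

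Of the 4 genes, 0 were called at 1 h in either stage, where 1.25% of all genes tested were called in myoblasts and 0.27% in differentiated cells. By edgeR, 1 of these 8 tests, Htr1b in myoblasts, had an unadjusted p-value under 0.05, and DESeq2 also called 0. At 3 h 1 of 4 was called in each stage (background 1.71% and 1.63%), and at 6 h 3 of 4 in each (2.17% and 2.04%). DESeq2 called 0 of 4 at 3 h in both stages, giving Ccr10 no adjusted p because of its low counts, and at 6 h 2 of 4 in myoblasts, without Mchr1, and 3 of 4 in differentiated cells. The counts at 3 h and 6 h restate the choice of the genes.

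The list of other G protein-coupled receptors held 323 genes, of which 318 were in the tables and 101 to 123 passed the filter on low counts in a comparison. At 3 h, 98 receptors were tested in both stages, and Ccr10, Ptgfr and Xcr1 were called in both, against 0.323% of all genes tested in both. At 6 h it was 4 of 100, namely Htr1b, Gpr35, Mchr1 and Fzd6, against 0.343%. These counts hold the chosen genes, so they restate the choice and nothing is read from them. Ptgfr, Xcr1 and Fzd6 therefore meet the same rule without being among the 4 genes.

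Ptgfr, the receptor of prostaglandin F2 alpha, was lower with stretching at 3 h in both stages, with log2 fold changes of -1.02 ± 0.269 in myoblasts and -0.82 ± 0.0984 in differentiated cells. Xcr1, the receptor of the chemokine XCL1, was higher at 3 h, with 1.14 ± 0.241 and 0.64 ± 0.200, although DESeq2 gave it no adjusted p in differentiated cells. Fzd6, a Frizzled receptor for Wnt proteins, had -0.61 ± 0.1004 and -0.62 ± 0.0811 at 6 h, after 0.37 ± 0.0379 and 0.41 ± 0.0721 at 3 h. Just outside the rule was Bdkrb2, a bradykinin receptor gene, with log2 fold changes of -0.56 ± 0.138 in myoblasts and -0.61 ± 0.153 in differentiated cells at 6 h.

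**Figure D3:**
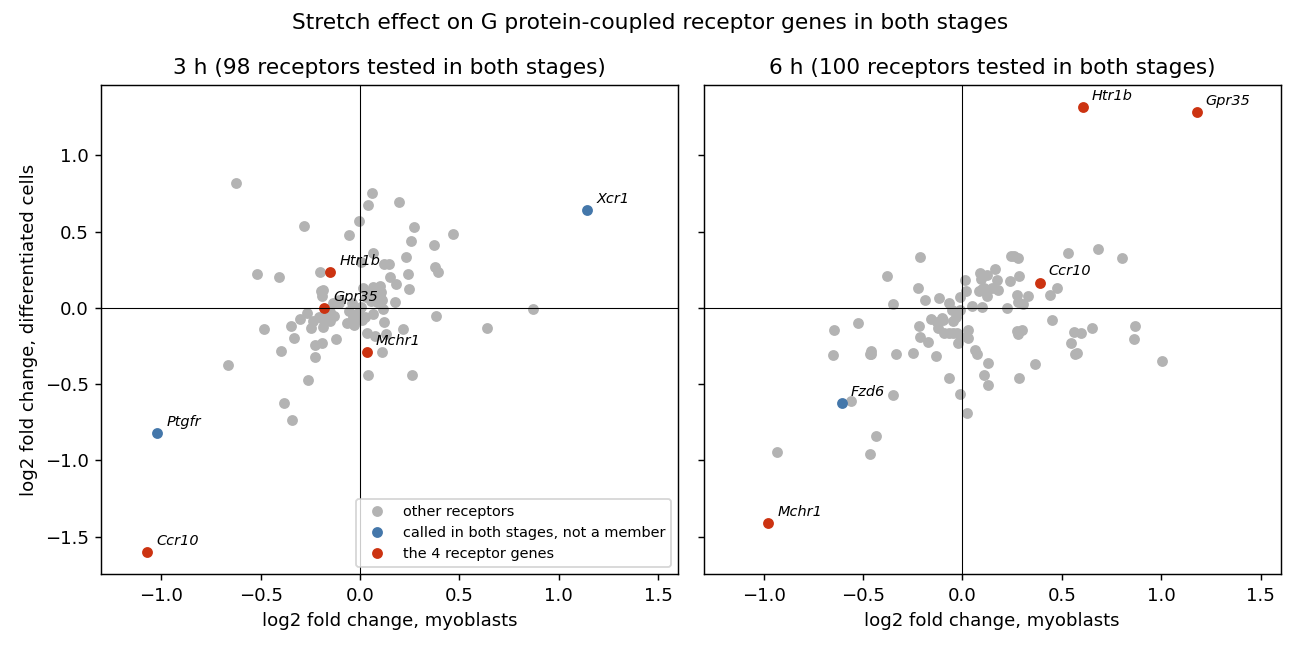
Log2 fold change (stretched over non-stretched) of receptor genes tested in both stages, myoblasts on the x axis and differentiated cells on the y axis, at 3 h (98 genes) and 6 h (100 genes). The 4 genes are red, other receptors called in both stages are blue and the rest grey; at 6 h Htr1b and Gpr35 lie at the upper right and Mchr1 at the lower left.

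In myoblasts at 6 h, 6 of the other receptors rose and 3 fell of 105 tested (8.57%, beside 2.17% of all genes tested). The balance between rises and falls in myoblasts was not stable, since DESeq2 called 2 up (Cxcr6 and Cnr1) and 3 down, the fit without a filter on low counts also 2 up and 3 down, and the fit without stretched replicate 9 called 1 up and 3 down. Those that rose included Cxcr6, a chemokine receptor gene (0.985 ± 0.105 to 1.71 ± 0.153 CPM), and Cnr1, the cannabinoid receptor 1 gene (0.527 ± 0.0875 to 0.831 ± 0.212 CPM). Kiss1r, Vipr1, Gipr and Celsr3, the receptors of kisspeptin, vasoactive intestinal peptide and gastric inhibitory polypeptide and an adhesion receptor, were the others, and Lpar4, F2rl1 and Fzd6 fell. In differentiated cells at 6 h, 1 rose and 11 fell of 121 tested (9.92%, beside 2.04% of all genes tested). Among those that fell were Oxtr, the oxytocin receptor gene (log2 fold change -1.22 ± 0.321), and Bdkrb1, a bradykinin receptor gene (-0.94 ± 0.180). Ptgfr, Adra1b, Adora2a, P2ry14, Bdkrb2, Sctr, Adgrd1, Gprc5d and Fzd6 fell as well, and Gpr21 rose. DESeq2 called 9 of these 12 and gave Oxtr, P2ry14 and Gpr21 no adjusted p. The fit without stretched replicate 7 called 5 falls, the lowest number with 1 library left out. The median log2 fold change at 6 h over all other receptors tested was 0.06 in myoblasts and -0.14 in differentiated cells, against 0.00 and -0.00 over all genes. The difference in direction between the stages was not tested.

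At 3 h, 2 receptors rose and 2 fell in myoblasts (3.96% of 101, beside 1.71% of all genes tested). They were Xcr1 and F2rl3, and Mrgprf and Ptgfr. In differentiated cells 7 rose and 2 fell (7.32% of 123, beside 1.63% of all genes tested). Besides Xcr1, those that rose included Htr1d, Htr6, Gpr39, a zinc-sensing receptor gene, Gpr3 and F2rl1, which encodes the protease-activated receptor PAR2, and Ptgfr and the endothelin receptor gene Ednra fell. At 1 h, 1 receptor was called in each stage. In myoblasts it was Htr2b (0.952% of 105, beside 1.25% of all genes tested). In differentiated cells it was Ptger4, a prostaglandin E2 receptor gene (0.826% of 121, beside 0.27% of all genes tested). Ptger4 went from 21.6 ± 1.35 to 37.8 ± 9.02 CPM (edgeR, adjusted p = 0.0325). With 1 library left out, no receptor was called in 5 of 8 fits at 1 h in myoblasts and in 6 of 8 in differentiated cells.

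Of the 11 other serotonin receptor genes on the list, 3 or 4 were tested in a comparison. Htr1d, the closest relative of Htr1b, was tested in differentiated cells alone. It rose at 3 h from 0.332 ± 0.0209 to 0.503 ± 0.0548 CPM (log2 difference 0.60 ± 0.172, adjusted p = 0.0305 in edgeR) and at 6 h was at 0.208 ± 0.0770 CPM with stretching and 0.239 ± 0.0705 CPM without. Htr6, which couples to the stimulatory G protein, also rose at 3 h in differentiated cells, from 0.166 ± 0.0711 to 0.433 ± 0.105 CPM (log2 difference 1.36 ± 0.309, edgeR adjusted p = 0.0105). Htr2b, a Gq-coupled receptor, rose in myoblasts at 1 h from 0.142 ± 0.0560 to 0.316 ± 0.0425 CPM (edgeR adjusted p = 0.0445), where DESeq2 gave an adjusted p of 0.0727. DESeq2 gave no adjusted p for Htr1d and Htr6 at 3 h, because of their low counts. At 6 h, the log2 fold change of Htr2b was 0.57 ± 0.413 in myoblasts and -0.30 ± 0.109 in differentiated cells, and that of Htr2a in myoblasts 0.19 ± 0.220.

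Genes that supply or clear the ligands were mostly below the filter. Of 22 on the list, 20 were in the tables and 3 to 6 were tested in a comparison. Over these 29 tests 0 were called by edgeR or by DESeq2, and 3 had an unadjusted p-value under 0.05 in edgeR. Maoa, the enzyme that breaks down serotonin, was at 82.0 ± 6.89 CPM with stretching and 80.3 ± 3.37 CPM without in myoblasts at 6 h. Pmch, the precursor of melanin-concentrating hormone, passed the filter only in myoblasts at 6 h, at 0.201 ± 0.0378 and 0.163 ± 0.0604 CPM. The CCR10 ligand genes Ccl27a, Ccl27b and Ccl28 were not tested in any comparison.

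Another list covered signalling and ligand supply. Of 96 genes of ligand supply, G proteins, receptor desensitisation and cyclic AMP, 92 were in the tables and 62 to 68 were tested. In myoblasts 0, 1 and 1 were called at 1, 3 and 6 h (0, 1.61 and 1.59%, beside 1.25, 1.71 and 2.17% of all genes tested). In differentiated cells it was 0, 1 and 0 (0, 1.49 and 0%, beside 0.27, 1.63 and 2.04%). The gene called at 3 h in myoblasts was Pde7b, a cyclic AMP phosphodiesterase (log2 fold change -0.84 ± 0.266). At 6 h it was Gng4, a G protein gamma subunit (1.25 ± 0.292), and at 3 h in differentiated cells Adcy8, an adenylyl cyclase (0.91 ± 0.177). For the comparisons with 0 calls by edgeR, DESeq2 also called 0, and the unadjusted p-value was under 0.05 for 9 genes in myoblasts at 1 h, 4 in differentiated cells at 1 h and 21 in differentiated cells at 6 h.

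The genes whose pattern was most like that of each receptor were found by Pearson's r of log2 CPM over the 24 libraries of each stage, taking the lower of the 2 values, among 14006 genes. For Htr1b these were Nsdhl (0.94), Fdps (0.93) and Idi1 (0.91), which encode enzymes of isoprenoid and sterol synthesis. Idi1 had log2 fold changes of 0.55 at 6 h in myoblasts and 0.77 in differentiated cells, against 0.61 and 1.32 for Htr1b. Nsdhl had 0.40 and 0.58, and Fdps 0.43 and 0.49.

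The likeness to sterol genes was also described within the non-stretched libraries. The genes were picked over all libraries of a stage, these among them, so the values are no separate support. Over the 12 non-stretched libraries of differentiated cells, r with Htr1b was 0.96 for Idi1, 0.91 for Nsdhl and 0.90 for Fdps, and in myoblasts 0.86, 0.81 and 0.67. After each library was set relative to the mean of its group, r was 0.93, 0.87 and 0.84 in differentiated cells but 0.27, 0.27 and 0.28 in myoblasts. The libraries of a stage share experiments. In non-stretched differentiated cells, replicates 9 and 10 held more Htr1b, Nsdhl, Fdps and Idi1 than 7 and 8 at each time. In the stretched differentiated group at 1 h, replicate 4 was the highest library for each of these genes, with 17.7 CPM of Htr1b and 261 CPM of Idi1. Between the stages the order was reversed, since Htr1b was lower in differentiated cells while Idi1 at 6 h without stretching was at 201 ± 18.3 CPM there and 136 ± 4.57 CPM in myoblasts.

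**Figure D4:**
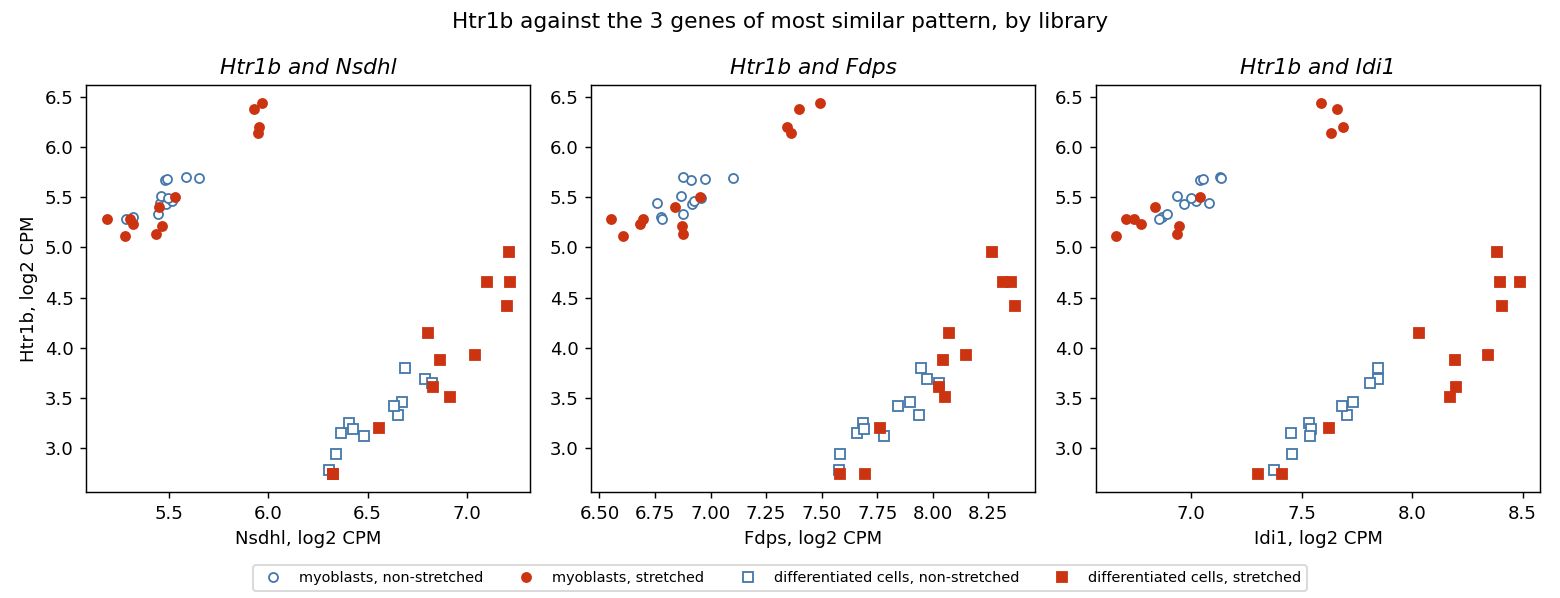
Htr1b against Nsdhl, Fdps and Idi1 in each of the 48 libraries (log2 CPM on both axes); circles are myoblasts, squares differentiated cells, and filled points stretched. Within each stage the points run from lower left to upper right (r of 0.91 or more over 24 libraries), and the stages form separate clouds with Htr1b higher in myoblasts.

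For Gpr35 the most similar genes were Mgat2 (0.74), Htr1b (0.71) and Pakap (0.71). In the 12 non-stretched libraries, r between Gpr35 and Htr1b was -0.21 in myoblasts and 0.21 in differentiated cells, against 0.92 and 0.78 in the stretched ones. For Mchr1 they were Mta3 (0.78), Ppa2 (0.78) and Nol3 (0.77), and for Ccr10 Ankmy2 (0.84), Zfyve21 (0.80) and Neurl4 (0.80). Ankmy2 had log2 fold changes of -0.40 in myoblasts and -0.23 in differentiated cells at 3 h. These values describe likeness over libraries and share the stretch effect on which the receptors were chosen.

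Receptors of this kind are also known from other cell types, so markers of such cells were measured. All libraries came from a single cell line, so the marker levels describe these cultures. The 8 immune markers summed to between 7.96 and 10.4 CPM in myoblasts and between 5.29 and 7.67 CPM in differentiated cells, and 2 of 8 averaged over 1 CPM in each stage. Most of this was Cd14, at a mean of 7.91 CPM in myoblasts. The T cell marker Cd3e had at most 2 counts in a library. The 8 neuronal markers summed to at most 0.859 CPM in myoblasts and 0.406 CPM after differentiation, with Gad1 at 0 in every library. The 4 endothelial markers stayed under 1 CPM in sum, and at 6 h in myoblasts they were at 0.611 to 0.931 CPM with stretching and 0.396 to 0.556 CPM without. Of the single genes tested in that comparison, 14.6% had all stretched libraries above all non-stretched ones. The endothelial sum went the other way in differentiated cells at 1 h, at 0.535 to 0.726 CPM with stretching and 0.754 to 0.940 CPM without.

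Other markers were present at higher levels. The 4 epithelial markers summed to between 1.47 and 2.83 CPM in myoblasts and between 9.06 and 17.9 CPM in differentiated cells, nearly all of it Cdh1, the E-cadherin gene, with a mean of 12.7 CPM after differentiation. Stretched and non-stretched sums of this list overlapped at every time. The 6 fibroblast and adipocyte markers summed to between 22.9 and 26.1 CPM in myoblasts and between 14.7 and 22.9 CPM in differentiated cells. Most of this was Pparg, a nuclear receptor gene of fat cells (mean 17.3 and 6.92 CPM), and Pdgfra, a growth factor receptor gene (6.996 and 11.4 CPM), while Adipoq, Plin1 and Thy1 had at most 2 counts in a library. In differentiated cells at 6 h the sum was lower with stretching, at 14.7 to 16.0 CPM against 18.4 to 22.9 CPM, as was that of the 7 differentiation markers, at 9547 to 10411 CPM against 10496 to 11089 CPM. Of the single genes tested in this comparison, 12.4% had all stretched libraries below all non-stretched ones. The part of these markers in the receptor values was not tested.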

How the data were processed

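Messenger RNA of stretched and non-stretched C2C12 cells was sequenced in 48 libraries. The paper describes an mRNA library kit, while the molecule label of the samples says nuclear RNA, and the paper was followed here. Per the paper's methods, the authors used STAR (mm10) and Salmon, and they deposited raw counts by gene symbol, one table per stage. Reads shared by overlapping or similar genes were divided by their counting. All columns were used. The title of stretched myoblast replicate 9 (1 h) carries another experiment code than its count column, and the column's code, shared with the other replicates 9 and 10, was used.

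After filterByExpr, which all 4 receptors passed in all 6 comparisons, and TMM scaling, the 8 libraries of a time and stage were fitted with edgeR 4.0.16 (R 4.3.3, quasi-likelihood). Calls needed a Benjamini-Hochberg adjusted p under 0.05 over all genes and an absolute log2 fold change of 0.58 or more. CPM used factors of the 24 libraries of a stage. Log2 CPM had a prior count of 1. The script was tested on simulated data.

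Members and lists were chosen with earlier results of these data known. Named are the 4 receptors, called or closely related list genes, genes within 20 kb and the 3 most similar genes of each. Maoa and the single markers were added after their values were seen. Alternatives were DESeq2 1.42.0, RLE factors, other filters (none, or 10 counts everywhere), one model per stage, an experiment term, a replicate block, no fold limit and leaving out libraries. Positions are from GENCODE vM21. RefSeq windows matched 3 of 4 members.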

Additional observations from a re-analysis of the deposited data

Results flagged for a closer look

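In 48 groups of 4 libraries (4 genes, 12 groups), 4 libraries stood apart from the rest of their group by Dixon's test at 95%, where chance gives about 1 in 20 groups. Gpr35 was low in non-stretched myoblasts at 1 h, replicate 10, at 0.234 CPM. Gpr35 was high in stretched myoblasts at 1 h, replicate 8, at 0.446 CPM. Mchr1 was high in non-stretched myoblasts at 3 h, replicate 9, at 0.382 CPM. Ccr10 was low in stretched differentiated cells at 6 h, replicate 10, at 0.372 CPM.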

How the results depend on the processing

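Of the 1 h values, the ones in differentiated cells changed sign but no call. With the experiment as covariate, the log2 fold changes there were -0.15 for Htr1b, -0.0118 for Gpr35 and 0.12 for Mchr1. With the replicate number as a block they were -0.17, -0.0278 and 0.15. Leaving out 1 library gave -0.24 (without stretched replicate 4) to 0.33 for Htr1b, -0.16 to 0.0645 for Mchr1 and -0.0156 to 0.25 for Ccr10. For Gpr35 it gave 0.0121 (also without stretched replicate 4) to 0.48. Of 23 same-numbered pairs, 6 had a correlation of deviations over 0.1 (range -0.04 to 0.15), and most were positive. Low correlations over all genes cannot exclude a pairing by replicate number, and the main fits used none. In the contrasts that chose the genes, DESeq2 did not call Mchr1 in myoblasts at 6 h and gave Ccr10 no adjusted p, because of its low counts, and the other values kept both limits outside the fits without 1 library.

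Counts of calls moved more. Without a fold-change cutoff, other receptors called were 9, 32 and 32 in myoblasts at 1, 3 and 6 h, and 29 and 30 in differentiated cells at 3 and 6 h, and signalling genes 3, 23 and 18, and 1, 12 and 16. With DESeq2, receptors were 0 and 5 in myoblasts at 1 and 6 h and 5 in differentiated cells at 3 h, and signalling genes 0 in myoblasts at 6 h. Without a filter, receptors in myoblasts were 0 at 1 h and 5 at 6 h. With at least 10 counts in every library, receptors were 0 at 1 h and signalling genes 0 at 6 h in myoblasts. With all 24 libraries in one model, receptors in differentiated cells at 1 h were 2. Leaving out 1 library gave 0 to 3, 2 to 6 and 4 to 11 receptors in myoblasts at the 3 times, with 2 at 3 h without stretched replicate 7, and 4 at 6 h without non-stretched or stretched replicate 9. In differentiated cells it gave 0 to 1, 8 to 10 and 6 to 11, with 6 at 6 h without stretched replicate 7, and for signalling genes 0 to 2 and 1 to 3 in myoblasts at 3 and 6 h and 1 to 2 in differentiated cells at 3 h. Why these counts moved was not tested. Gpr35, Mchr1 and Ccr10 had under 100 counts in every library, so their values are less precise.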
